A study of Mus musculus with 20 samples.

Results

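The lysyl oxidase family of the mouse comprises 5 genes, Lox, Loxl1, Loxl2, Loxl3 and Loxl4. They were taken by name from a deposited table of 30746 gene lines in whole lung, where each has 1 line, and all 5 passed the filter on low values that left 21658 genes for testing. Lysyl oxidases are secreted copper enzymes that oxidise lysine side chains in collagen and elastin, and the aldehydes that form join neighbouring chains into crosslinks. Crosslinking makes the matrix insoluble and sets the stiffness of vessel walls and the recoil of alveolar walls. Lox and Loxl1 carry a propeptide before the catalytic domain and act on fibrillar collagen and elastic fibres. Loxl2, Loxl3 and Loxl4 carry scavenger receptor cysteine-rich domains instead, and Loxl2 is known for its work on collagen IV of basement membranes.

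The study crossed genotype with oxygen in C57BL/6 mice, and its title places pulmonary hypertension in animals without Vip, the gene of vasoactive intestinal peptide. Wild-type (WT) lungs were sampled in normoxia (21% O2, 6 libraries) and after 4 weeks of hypoxia (10% O2, 5 libraries). Lungs labelled VIPKO were sampled in normoxia (4 libraries) and after 4 weeks of hypoxia (5 libraries). VIPKO is called a knockout in titles and design text, whereas the genotype field reads knockdown. No cell type is named to which the deletion is limited, nothing on age or sex is given in the sources used here, and the labels give every library the same batch. Whether each library is a separate animal is not said, and the p-values then measure only the spread between these libraries, which may be technical.

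Values are a normalized signal as deposited, and changes are log2 fold changes ± SE of log2(signal + 1) from 1 limma fit to all 20 libraries, with p-values adjusted by Benjamini-Hochberg over 21658 genes and a threshold of 0.05. A level is compared between genes only after division by exon length. The spacing of low values gave estimated depths of 4.96 to 56.7 M reads (median 17.8 M). The scarcest member, Loxl4, still rested on at least 42 estimated reads in every library. Markers of lung epithelium and lung endothelium were present in every library, and chondrocyte markers, of which Acan and Matn3 were at 0 in some libraries of each group, summed to at most 27.2. Vip itself was low in both genotypes. Its signal ranged from 0 to 93.0 in the WT libraries and from 1.08 to 106 in the VIPKO libraries, with the highest value in the library labelled VIPKO hypoxia 4, so it did not bear out the genotype labels on which each genotype direction here rests.

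The members share a catalytic core. To show how close they are at the level of the transcript, the 60 bases that encode the copper-binding histidine cluster are given below for the members on chromosomes 9, 14, 6 and 19, from the GENCODE vM21 transcripts of GRCm38. Each runs 5′ to 3′ across a junction of 2 exons, and the capitals mark the 34 bases that are identical in all 4 of these members.
Loxl1: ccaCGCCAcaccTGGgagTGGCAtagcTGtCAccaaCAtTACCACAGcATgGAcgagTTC
Loxl2: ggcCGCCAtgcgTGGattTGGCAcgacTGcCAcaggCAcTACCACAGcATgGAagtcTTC
Loxl3: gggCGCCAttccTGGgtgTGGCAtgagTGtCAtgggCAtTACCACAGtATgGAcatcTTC
Loxl4: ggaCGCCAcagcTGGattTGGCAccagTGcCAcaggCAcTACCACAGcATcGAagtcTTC

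The Loxl1 stretch lies in exons 3 and 4 at chr9:58293705-58294393 on the minus strand, and the Loxl2 stretch in exons 10 and 11 at chr14:69682304-69689052 on the plus strand. The Loxl3 stretch lies in exons 10 and 11 at chr6:83049983-83050140 on the plus strand, and the Loxl4 stretch in exons 11 and 12 at chr19:42598792-42599911 on the minus strand. Over these bases Lox and Loxl1 were 90.0% identical and Loxl2 and Loxl4 86.7%, whereas Lox shared 65.0% with Loxl2 and 63.3% with Loxl4. In spite of this likeness no stretch of 50 bases of any member's transcripts was found in another member, so reads of that length could be told apart between members.

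Loxl2 has a near copy in the genome. The annotated gene Gm21451 (chr14:69390854-69480287) is identical to Loxl2 over all 60 bases above, and it holds 42.9% of the 50-base stretches of Loxl2. It has its own line in the table, with a signal of 26.3 to 387 against 463 to 1302 for Loxl2, and how reads were shared between the 2 lines is not given in the sources used here. Loxl2 values are uncertain in that respect, although the sum of the 2 lines gave no call that Loxl2 alone did not. Loxl3 shares 8.5% of its 50-base stretches with Htra2, which overlaps it on the opposite strand, and the annotated gene AC161119.1 overlaps the Lox locus on the opposite strand. The library kit marks strand, but the strand setting of the counting is not given in the sources used here, so reads of Loxl3 and Htra2 could be mixed. Lox, Loxl1 and Loxl4 shared no 50-base stretch with any other annotated gene.

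Per kb of exon, Loxl1 was the most abundant member in every group and Lox the next. The mean signal per kb in WT normoxia was 793 for Loxl1, 273 for Lox, 189 for Loxl2, 51.7 for Loxl3 and 37.9 for Loxl4. The order of the 5 group means was the same in WT hypoxia, VIPKO normoxia and VIPKO hypoxia. Lox made up 20.8% ± 6.91 (SD, n = 6) of the family's per-length signal in WT normoxia. Its share was 26.1% ± 9.07 (SD, n = 5) for WT hypoxia and 21.8% ± 2.89 (SD, n = 4) for VIPKO normoxia. In VIPKO hypoxia its share was 35.0% ± 3.79 (SD, n = 5), while that of Loxl1 was 47.5% ± 3.83 (SD, n = 5).

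**Figure D1:**
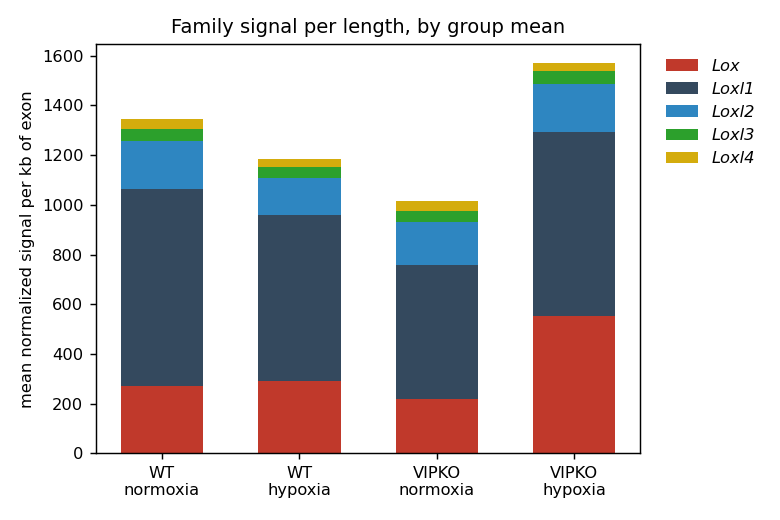
Mean normalized signal per kb of exon (vertical axis) stacked over the 5 genes for each of the 4 groups, with no error shown. The Lox segment is 552 in VIPKO hypoxia and 220 to 290 in the other groups, and Loxl1 is the tallest segment in each.

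Lox, the founding member, was the only gene of the family called in any comparison of the fit to all 20 libraries. It is a protein-coding gene on chromosome 18, from 52516067 to 52529867 on the minus strand (GRCm38, mm10). It rose 2.49-fold with hypoxia in VIPKO lungs and not detectably in WT lungs, and in hypoxia it stood 1.94-fold above WT. In WT normoxia its signal ran from 985 to 1703, with a median of 1194. WT hypoxia libraries 1 to 5 gave 883, 1898, 1475, 1427 and 1255. VIPKO normoxia libraries 1 to 4 gave 934, 1101, 1098 and 1063, and VIPKO hypoxia libraries 1 to 5 gave 3370, 2744, 2269, 2598 and 2207. All 5 VIPKO hypoxia libraries were above all 15 others, and the other 3 groups overlapped one another. Taken in pairs, VIPKO hypoxia did not overlap VIPKO normoxia in 5.13% of the genes tested. For WT hypoxia this share was 3.76% and for WT normoxia 8.25%. The share of genes with 1 group above all 15 other libraries was not computed.

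The group means of Lox were 2638 ± 467 (SD, n = 5) for VIPKO hypoxia, 1388 ± 368 (SD, n = 5) for WT hypoxia, 1302 ± 313 (SD, n = 6) for WT normoxia and 1049 ± 78.4 (SD, n = 4) for VIPKO normoxia. In this order VIPKO hypoxia differed from its neighbour beyond the spread, and the neighbours below it did not. WT hypoxia and WT normoxia differed by 0.08 ± 0.17 (limma, adjusted p = 0.77). WT normoxia and VIPKO normoxia were -0.28 ± 0.18 apart, as VIPKO minus WT (adjusted p = 0.35), and WT hypoxia was 0.36 ± 0.19 above VIPKO normoxia (adjusted p = 0.204).

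With hypoxia in VIPKO, Lox rose by 1.32 ± 0.19 on the log2 scale, with a 95% interval of 0.92 to 1.71 (limma, adjusted p = 0.000758). It was the only 1 of the 5 members called, where 0.997% of the genes tested were called in either direction and 0.614% were called as higher. By p-value Lox ranked 21 of 21658 genes in this comparison. In WT, where 14.7% of the genes tested were called, no member was called, and the 95% interval of the Lox change ran from -0.27 to 0.44.

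Between the genotypes in hypoxia, Lox was higher in VIPKO by 0.95 ± 0.18, with a 95% interval of 0.58 to 1.32 (limma, adjusted p = 0.0153). Again 1 of 5 members was called, where 1.62% of the genes tested were called and 0.716% were called as higher. The Lox groups did not overlap, as in 3.76% of the genes tested. Without VIPKO hypoxia 2, the library in which only 40.4% of low values lay near whole reads against at least 81.7% elsewhere, the difference was 0.93 with an adjusted p of 0.0526, so the size held and the call did not. In a fit to the compared groups alone the adjusted p was 0.105. In normoxia, where 8.65% of the genes tested were called, no member was called between the genotypes.

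The oxygen effect on Lox differed between the genotypes by 1.23 ± 0.25, with a 95% interval of 0.70 to 1.76 (limma, adjusted p = 0.0397). The share of genes called for this interaction was 0.282% (0.134% as higher), and 1 of 5 members was among them. The call was marginal. The value ran from 1.08 to 1.36 when each library was left out in turn, and the adjusted p was above the threshold in 16 of these 20 fits. Against WT normoxia, VIPKO hypoxia was higher in Lox by 1.03 ± 0.17 (limma, adjusted p = 0.000729), in a comparison that called 12.3% of the genes tested (6.39% as higher) and in which the groups of 8.25% did not overlap. Between WT hypoxia and VIPKO normoxia 11.8% of the genes tested were called and no member was. These comparisons share libraries, so they are not independent of one another.

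**Figure D2:**
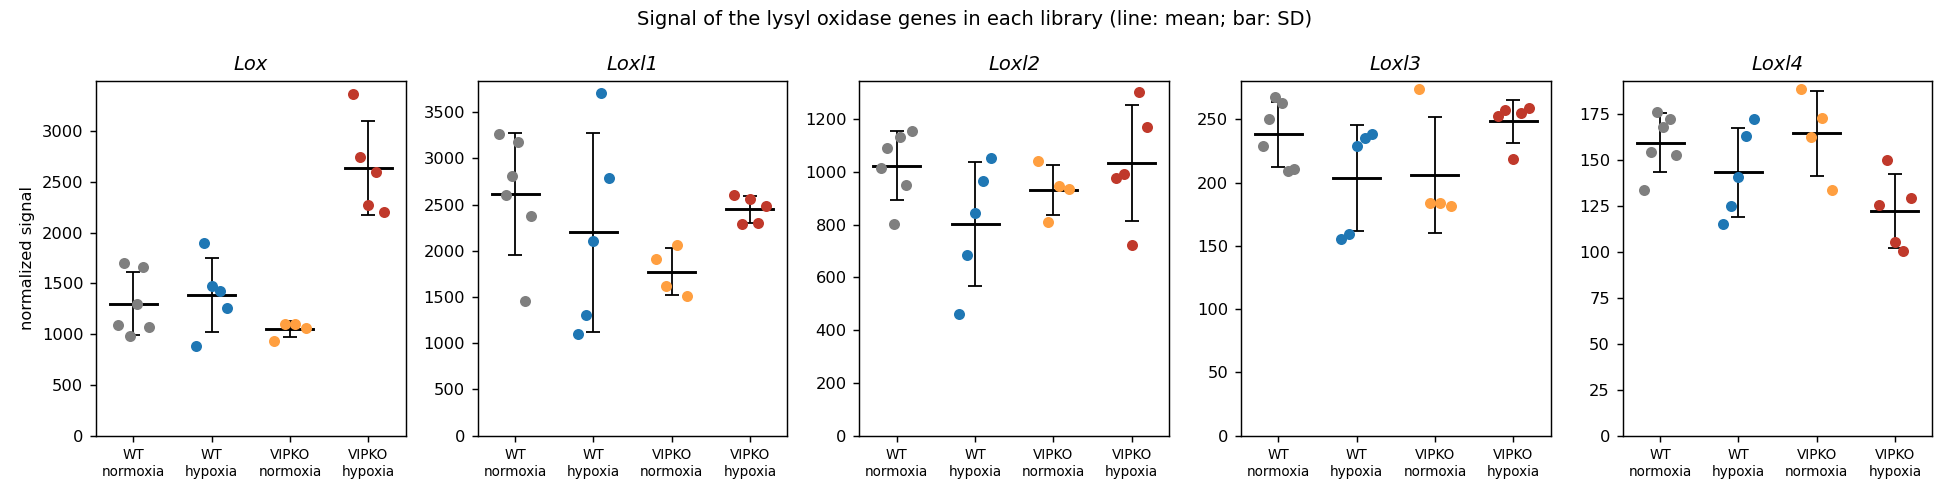
Normalized signal (vertical axes, each from 0) of the 5 genes in every library of the 4 groups. Points are libraries, horizontal lines group means and bars the SD. The 5 Lox points of VIPKO hypoxia, 2207 to 3370, lie above the 15 others, of which the highest is 1898.

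Loxl1 (chr9:58287738-58313186, minus strand) codes for the enzyme that is needed to maintain elastic fibres in adult tissue. Its signal in WT normoxia ran from 1461 to 3264, with a median of 2703. WT hypoxia libraries 1 to 5 gave 1100, 1308, 2103, 3705 and 2784, the widest spread of any member in any group (coefficient of variation 48.9%). The 4 VIPKO normoxia libraries, in order, gave 1910, 1617, 2062 and 1514, and the 5 VIPKO hypoxia libraries 2602, 2290, 2560, 2305 and 2482. The lowest VIPKO hypoxia library was above the highest VIPKO normoxia library, while WT hypoxia held both the lowest and the highest value of all.

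In VIPKO the Loxl1 difference with hypoxia was 0.47 ± 0.27, with a 95% interval of -0.09 to 1.03 (limma, adjusted p = 0.471). It and Lox were the 2 of 5 members whose VIPKO groups did not overlap, where 5.13% of the genes tested did not overlap. Loxl1 was -0.52 ± 0.26 in VIPKO against WT in normoxia (adjusted p = 0.213), -0.35 ± 0.24 with hypoxia in WT (adjusted p = 0.329) and 0.30 ± 0.25 in VIPKO against WT in hypoxia (adjusted p = 0.557). The group means were highest in WT normoxia, at 2614 ± 657 (SD, n = 6), and lowest in VIPKO normoxia, at 1776 ± 255 (SD, n = 4). No pair of groups passed the test.

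Loxl1 moved from library to library with genes of contractile cells. The summed signal of 6 smooth muscle markers (Myh11, Acta2, Tagln, Cnn1, Des and Actg2, none of them at 0 in any library) ran from 5517 to 17350 in WT normoxia, 2698 to 18480 in WT hypoxia, 5524 to 14680 in VIPKO normoxia and 7692 to 15080 in VIPKO hypoxia. WT hypoxia libraries 1 and 2 had the lowest marker sums of all 20 libraries, 2698 and 4568, and the lowest Loxl1. WT hypoxia 4 had the highest of both, 18480 and 3705. Over the 20 libraries the Pearson r of log2 Loxl1 with the log2 marker sum was 0.84, and within groups, after subtraction of group means, it was 0.89. The sum of 5 pericyte markers (Pdgfrb, Cspg4, Kcnj8, Notch3 and Rgs5) gave 0.85 and 0.80. In whole lung, fewer cells of a type and less RNA per cell cannot be told apart, and the part of these cells in the Loxl1 values was not tested.

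The same values for Lox were nearer 0. Its r with the smooth muscle sum was 0.21 over the 20 libraries and 0.01 within groups, and with the pericyte sum 0.23 and 0.07. VIPKO normoxia and VIPKO hypoxia overlapped in the smooth muscle sum and in the pericyte sum (7161 to 11250 against 8043 to 13910). In the comparisons where Lox was higher, other than against WT normoxia, the markers were mostly on the same side. Apart from Rgs5, they did not pass the test. With hypoxia in VIPKO, 6 of 6 smooth muscle markers were positive (median 0.35) and 4 of 5 pericyte markers (median 0.45). Between the genotypes in hypoxia, 6 of 6 smooth muscle markers (median 0.90) and 5 of 5 pericyte markers (median 0.22) were positive. For the interaction these were 6 of 6 (median 1.01) and 5 of 5 (median 0.74), none was called, and 1 and 3 had an unadjusted p under 0.05. Of all 21658 genes tested, 3082 had an unadjusted p under 0.05 for the interaction and 51.2% were positive. Against WT normoxia, VIPKO hypoxia had 6 of 6 smooth muscle markers positive (median 0.16) and 2 of 5 pericyte markers (median -0.06). There 1 of the pericyte markers was called as higher, as were 6.39% of all genes tested. The part of these cells in the Lox values was not tested. The 7 fibroblast markers summed to 24220 to 29930 in VIPKO normoxia and 25380 to 36590 in VIPKO hypoxia, and here r with Lox was 0.40 over the libraries and 0.16 within groups. Of these 18 markers, 1 was called with hypoxia in VIPKO, the pericyte gene Rgs5, which rose by 2.89 ± 0.35 (limma, adjusted p = 0.000119). All these values share the library and its normalization.

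**Figure D3:**
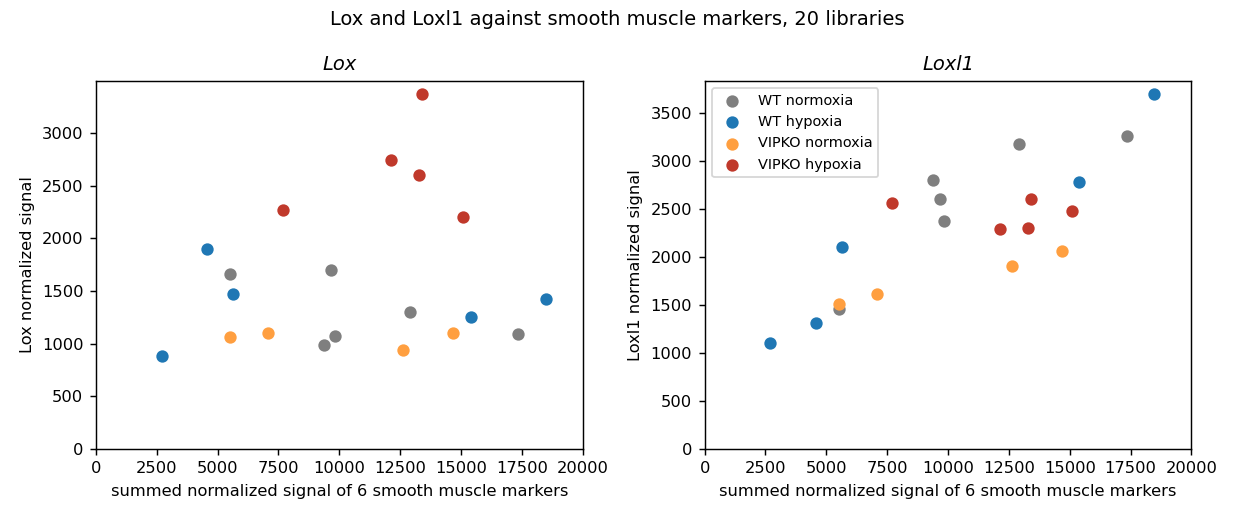
Normalized signal of Lox (left) and Loxl1 (right) against the summed normalized signal of 6 smooth muscle markers, 1 point per library, 20 libraries in 4 groups. Loxl1 climbs with the markers from 1100 to 3705. The 5 VIPKO hypoxia points of Lox run from 2207 to 3370, at marker sums of 7692 to 15080.

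Loxl2 (chr14:69609068-69695834, plus strand) and Loxl3 (chr6:83034173-83052562, plus strand), members with scavenger receptor domains, did not pass the test in any comparison. Loxl2 ran from 803 to 1154 in WT normoxia, with a median of 1051. The 5 WT hypoxia libraries, in order, gave 463, 686, 845, 966 and 1054. Those of VIPKO normoxia gave 1040, 808, 944 and 933, and those of VIPKO hypoxia 977, 993, 724, 1302 and 1171. WT hypoxia 1 and 2 were the lowest of all 20 libraries, and every pair of groups overlapped.

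The Loxl2 difference with hypoxia in WT was -0.40 ± 0.17, with a 95% interval of -0.76 to -0.03 (limma, adjusted p = 0.119), and in VIPKO it was 0.13 ± 0.19 (adjusted p = 0.814). Without WT hypoxia 5, where skeletal muscle markers summed to 33670 against at most 1013 in every other library, and VIPKO hypoxia 3, where thymus markers summed to 16870 against at most 381, the WT value was -0.51 with an adjusted p of 0.041. In the same fit VIPKO against WT in hypoxia went from 0.39 to 0.63, and its adjusted p from 0.245 to 0.0453. Of 21506 genes tested in that fit, 1065 were called in VIPKO against WT in hypoxia, against 350 of 21658 with all libraries. With hypoxia in WT these were 3008 against 3173. Loxl2 moved with the fibroblast marker sum within groups (r = 0.81 after subtraction of group means) and with the smooth muscle sum (r = 0.74). Whether those cells account for the low WT hypoxia values was not tested.

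Loxl3 ran from 209 to 267 in WT normoxia, with a median of 239.5. Libraries 1 to 5 of WT hypoxia gave 155, 159.7, 229, 235 and 238. Libraries 1 to 4 of VIPKO normoxia gave 274, 184, 184 and 181, and libraries 1 to 5 of VIPKO hypoxia 252.5, 257, 218, 255 and 259. A single high library, VIPKO normoxia 1, made the VIPKO groups overlap. That library also lay apart from the rest of its group over all tested genes, as given below. The difference with hypoxia in VIPKO was 0.29 ± 0.15 (limma, adjusted p = 0.439), and without VIPKO normoxia 1 it was 0.43 with an adjusted p of 0.19. WT hypoxia 1 and 2 were again the lowest libraries, and the difference with hypoxia in WT was -0.25 ± 0.14 (adjusted p = 0.224).

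Loxl4 (chr19:42593982-42612813, minus strand), the scarcest member, was the only 1 with its lowest mean in VIPKO hypoxia. It ran from 134 to 176 in WT normoxia, with a median of 161. WT hypoxia gave 116, 125, 141, 163 and 172.5 in libraries 1 to 5. VIPKO normoxia gave 189, 163, 173 and 134 in libraries 1 to 4, and VIPKO hypoxia 126, 150.3, 106, 101 and 129.5 in libraries 1 to 5. VIPKO hypoxia held the 2 lowest libraries of all 20, and it overlapped each of the other groups.

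The Loxl4 difference with hypoxia in VIPKO was -0.43 ± 0.15, with a 95% interval of -0.75 to -0.11 (limma, adjusted p = 0.226). Against WT normoxia VIPKO hypoxia was -0.39 ± 0.14 (adjusted p = 0.068), and without VIPKO hypoxia 2 this was -0.47 with an adjusted p of 0.0365. With hypoxia in WT it was -0.16 ± 0.14 (adjusted p = 0.429). Lox and Loxl4 had opposite signs with hypoxia in VIPKO, and only the Lox value passed the test.

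**Figure D4:**
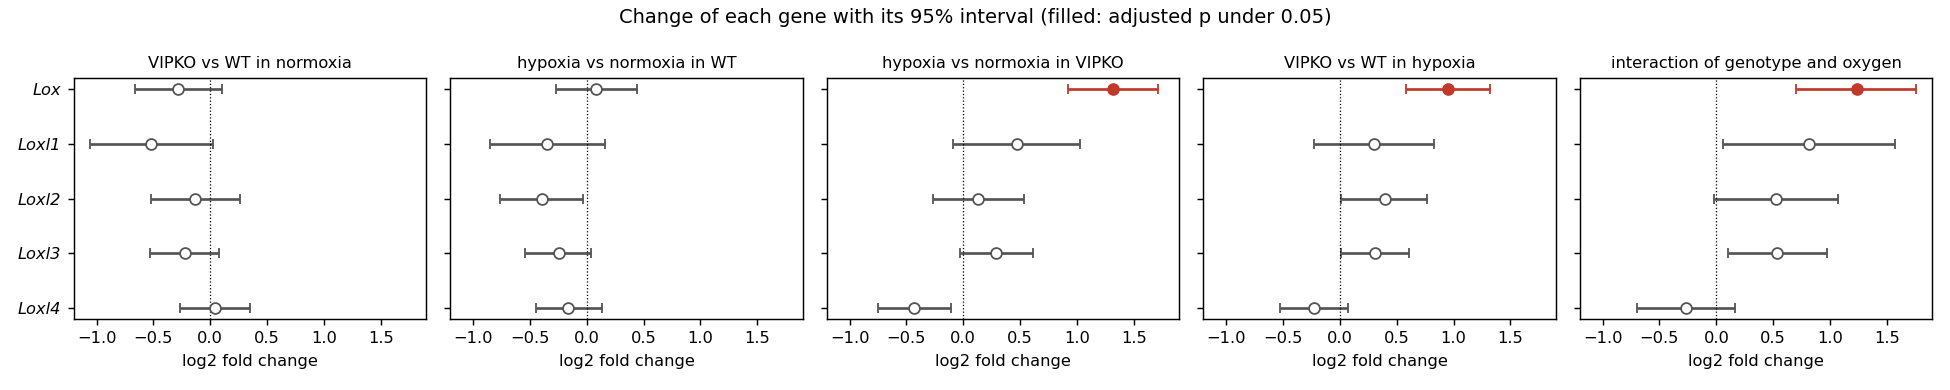
Log2 fold change (horizontal axis) of the 5 genes in 5 comparisons, with 95% intervals from limma. Filled points mark an adjusted p under 0.05. Lox alone is filled, at 1.32, 0.95 and 1.23 in the panels for hypoxia in VIPKO, VIPKO against WT in hypoxia and the interaction, and the Loxl4 points with hypoxia lie on the negative side.

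Over the 20 libraries Loxl1, Loxl2 and Loxl3 varied together, with Pearson r of 0.75 for Loxl1 and Loxl3, 0.69 for Loxl2 and Loxl3 and 0.60 for Loxl1 and Loxl2. Within groups these were 0.70, 0.62 and 0.58. Lox had r of 0.19 with Loxl1, 0.27 with Loxl2, 0.32 with Loxl3 and -0.50 with Loxl4. Within groups the r of Lox and Loxl4 was 0.15, so the negative value came from the differences between groups.

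Among 13274 genes with a mean signal of at least 50, the 3 whose log2 values were most like those of Lox were Ly6c1, an endothelial and monocyte surface antigen (r = 0.88), Adam15, a membrane disintegrin (r = 0.85), and Vegfc, a growth factor for lymphatic vessels (r = 0.85). Within groups r was 0.71 for Ly6c1, 0.29 for Adam15 and 0.25 for Vegfc. Vegfc averaged 240.1 in WT normoxia, 281.5 in WT hypoxia, 227 in VIPKO normoxia and 649.6 in VIPKO hypoxia. Most like Loxl1 were Jph2, a junctional membrane protein of muscle (r = 0.92), Slc41a3, a magnesium transporter (r = 0.91), and Col18a1, a basement membrane collagen (r = 0.91), with within-group r of 0.90 to 0.94.

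Most like Loxl2 were Fgf10 (r = 0.90), a growth factor of lung mesenchyme, Pi15 (r = 0.88), and Lama2 (r = 0.87), a laminin chain. Most like Loxl3 were Dbn1 (r = 0.88), an actin-binding protein, Sod3 (r = 0.85), the extracellular superoxide dismutase, and Prelp (r = 0.83), a matrix proteoglycan. Loxl4 was most like Tnxb (r = 0.84), the gene of the matrix glycoprotein tenascin-X, then Gata5 (r = 0.79) and Frmd4b (r = 0.78). Tnxb averaged 9083 in WT normoxia, 6428 in WT hypoxia, 8866 in VIPKO normoxia and 5278 in VIPKO hypoxia, the same order as Loxl4 apart from the 2 normoxia groups. These are the highest of many correlations over the same libraries. Without the 2 libraries farthest from a member's median, r was lower for each of these genes. It then ran from 0.65 for Gata5 with Loxl4 to 0.87 for Jph2 with Loxl1, and was 0.73 for Fgf10 with Loxl2.

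The genes that work beside the family were read from lists. They were read from the fit to all 20 libraries alone, so how their calls depend on the settings was not examined. Of 17 elastic fibre and microfibril genes, 1 rose with hypoxia in VIPKO and none fell, where 0.614% of all genes tested rose, and the median change was 0.20 against -0.01 over all genes tested. This was Fbln2, the gene of the elastic fibre protein fibulin-2, which rose by 1.17 ± 0.21 (limma, adjusted p = 0.0069). Its signal averaged 394 ± 68.9 (SD, n = 4) for VIPKO normoxia and 887 ± 127 (SD, n = 5) for VIPKO hypoxia. In WT 2 of the 17 rose, where 7.88% of all genes tested rose, Fbln2 by 0.70 ± 0.19 (adjusted p = 0.0221) and Fbln5, a fibulin that binds Loxl1 and elastin, by 0.43 ± 0.09 (adjusted p = 0.00584). Eln, the gene of elastin itself, averaged 2919 ± 1546 (SD, n = 4) for VIPKO normoxia and 7395 ± 1761 (SD, n = 5) for VIPKO hypoxia, a difference of 1.43 ± 0.42 that did not pass the test (adjusted p = 0.128). No elastic fibre gene had a called interaction, and the 2 with the smallest p were Eln (1.96 ± 0.57, adjusted p = 0.124) and Ltbp1 (0.54 ± 0.19, adjusted p = 0.191). Ltbp3, the gene of a latent TGF-beta binding protein, was lower in VIPKO than in WT in normoxia (-0.42 ± 0.10, adjusted p = 0.0186) and in hypoxia (-0.50 ± 0.10, adjusted p = 0.0214).

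Of 18 collagen modifying enzymes and chaperones, 1 rose with hypoxia in VIPKO, where 0.614% of all genes tested rose, and none fell. It was Plod1, a lysyl hydroxylase, whose product supplies hydroxylysine to crosslinks. Plod1 was at 883 ± 86.2 (SD, n = 6) for WT normoxia, 838.5 ± 156.5 (SD, n = 5) for WT hypoxia, 749.6 ± 78.3 (SD, n = 4) for VIPKO normoxia and 1212 ± 140.3 (SD, n = 5) for VIPKO hypoxia. The VIPKO hypoxia libraries, 1082 to 1435, were above all the others, as for Lox. How many of all genes tested share this order was not computed. Plod1 rose by 0.69 ± 0.12 with hypoxia in VIPKO (limma, adjusted p = 0.00582), stood 0.54 ± 0.12 above WT in hypoxia (adjusted p = 0.0252), and had an interaction of 0.78 ± 0.16 (adjusted p = 0.0463).

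Besides Plod1, 16 of the 18 had a positive value with hypoxia in VIPKO without passing the test, and the list's median was 0.27, while 48.3% of all genes tested were positive there. Serpinh1, the collagen chaperone, was 0.69 ± 0.20 higher (adjusted p = 0.118). In WT 2 of the 18 were called, where 14.7% of all genes tested were. P4hb rose (0.33 ± 0.11, adjusted p = 0.041), a subunit of prolyl hydroxylase, and Pxdn fell (-0.40 ± 0.12, adjusted p = 0.0307), the peroxidase that crosslinks collagen IV.

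Of 11 collagen genes tested, the substrates of the family, 2 fell with hypoxia in WT, Col5a1 by 1.01 ± 0.27 (limma, adjusted p = 0.0194) and Col6a3 by 0.98 ± 0.24 (adjusted p = 0.0134), in a comparison where 6.77% of all genes tested fell. All 11 values were negative, with a median of -0.42, while 49.4% of all genes tested were positive. In VIPKO none was called, 5 of 11 were positive and the median was -0.01. The 2 with the smallest p there were the basement membrane collagens Col4a2 (0.38 ± 0.12, adjusted p = 0.177) and Col4a1 (0.39 ± 0.16, adjusted p = 0.299). For the interaction all 11 were positive with a median of 0.60, as were 51.2% of all genes tested, and none passed the test, so a difference between the genotypes was not shown for any of them. In hypoxia Col5a2 was higher in VIPKO than in WT by 0.78 ± 0.19 (adjusted p = 0.0439), where 0.716% of all genes tested were called as higher.

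Of 15 tested genes for activation, binding partners and copper supply, none was called with hypoxia in VIPKO, where the smallest p belonged to Fn1 (0.67 ± 0.18, adjusted p = 0.101) and Tnxb (-0.75 ± 0.24, adjusted p = 0.166). In WT 4 rose and 3 fell, where 7.88% of all genes tested rose and 6.77% fell. The risers were Fmod, a collagen-binding proteoglycan (0.71 ± 0.18, adjusted p = 0.0171), and 3 copper handling genes, the importer Slc31a1 (0.62 ± 0.17, adjusted p = 0.0228), the chaperone Atox1 (0.54 ± 0.15, adjusted p = 0.0265) and the exporter Atp7b (0.70 ± 0.23, adjusted p = 0.0453). Those that fell were Atp7a, the pump that loads copper onto lysyl oxidases (-0.38 ± 0.09, adjusted p = 0.0106), Thbs1 (-0.86 ± 0.21, adjusted p = 0.0154) and Adamts14, a procollagen protease (-0.82 ± 0.25, adjusted p = 0.035).

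Fn1, the gene of fibronectin, was higher in VIPKO than in WT under hypoxia by 0.79 ± 0.17 (limma, adjusted p = 0.0286). In that comparison 0.716% of all genes tested were called as higher. Bmp1, the protease that removes the Lox propeptide, was called in 1 comparison, VIPKO hypoxia against WT normoxia, where it fell by 0.61 ± 0.20 on the log2 scale (adjusted p = 0.0468). Of 11 tested upstream signals, none was called with hypoxia in VIPKO, and the smallest p belonged to Tgfb3 (0.43 ± 0.15, adjusted p = 0.21) and Ccn2 (0.52 ± 0.24, adjusted p = 0.365). Snai1 fell in WT (-0.72 ± 0.23, adjusted p = 0.0384). Hif1a, the gene of a hypoxia-inducible factor subunit that is regulated mainly through the stability of its protein, was higher in VIPKO than in WT in normoxia by 0.41 ± 0.10 (adjusted p = 0.0181). Of 3 copper amine oxidases outside the family, Aoc1 rose with hypoxia in WT (1.17 ± 0.30, adjusted p = 0.0174).

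**Figure D5:**
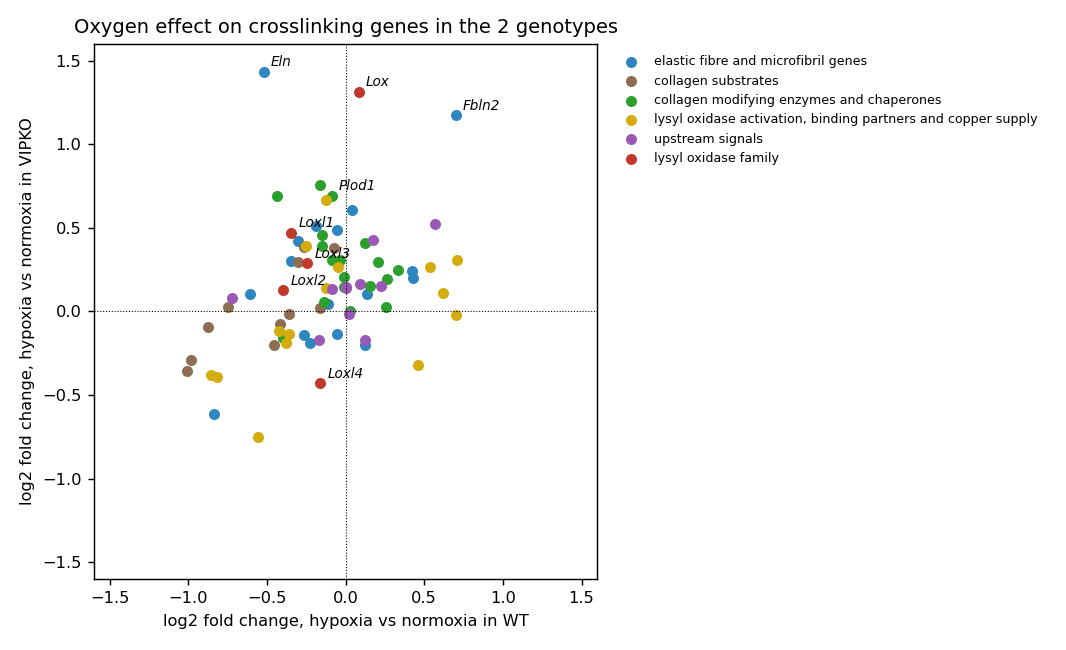
Log2 fold change with hypoxia in WT (horizontal axis) and in VIPKO (vertical axis) for the tested genes of the family and 5 related lists, without error bars. Lox lies near 0 on the WT axis (0.08) and at 1.32 on the VIPKO axis, between Fbln2 (1.17) and Eln (1.43, not called).

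Other differences between groups and libraries stood beside these results. By principal components of the tested genes, VIPKO normoxia 1 lay near WT normoxia. On the second (15.5% of the variance) it was at 28.2, with WT normoxia at 27.5 to 56.1. VIPKO normoxia 2 to 4 were at -63.1, -45.4 and -53.3. On the first (21%) VIPKO hypoxia 2 was at -65.4 and the other VIPKO hypoxia libraries at 13.2 to 76.2. VIPKO normoxia 2, 3 and 4 were at -59.2, -75.4 and -17.8 there. The mitochondrial ribosomal RNA signal ran from 97.7 to 2075 in WT normoxia, 396.5 to 7058 in WT hypoxia, 12030 to 27210 in VIPKO normoxia and 4506 to 9415 in VIPKO hypoxia. With it as a covariate the rise of Lox with hypoxia in VIPKO kept its call, VIPKO against WT in hypoxia was 1.08 with an adjusted p of 0.067, and the interaction was 1.10 with an adjusted p of 0.164. The 6 adipocyte markers summed to 74 to 437 in WT normoxia and 682 to 11280 in WT hypoxia. In VIPKO they summed to 405 to 1890 in normoxia and 586 to 2434 in hypoxia. Their r with Lox was 0.23 over the 20 libraries and 0.01 within groups. All 6 rose with hypoxia in WT, where 7.88% of all genes tested rose. In VIPKO none was called with hypoxia, where 0.997% of all genes tested were called. For the interaction, which called 0.282% of all genes tested, all 6 were negative (median -3.91) and none was called. All 4 B cell markers fell with hypoxia in VIPKO (median -1.25), where 0.383% of all genes tested fell. All 4 fell in WT (median -1.01), where 6.77% of all genes tested fell. Of 6 airway secretory markers, 6 rose in VIPKO against WT in normoxia (median 5.39) and 5 with hypoxia in WT (median 5.55). In these comparisons 4.69% and 7.88% of all genes tested rose. None of the 6 was called with hypoxia in VIPKO, and for the interaction all 6 were negative (median -5.33) and 1 was called. Of 6 macrophage markers, 2 rose in VIPKO against WT in normoxia and 2 with hypoxia in WT, against the same 4.69% and 7.88% of all genes tested. With hypoxia in VIPKO all 6 were positive (median 0.44) and none was called. Their part in the Lox values was not tested. The rise of Lox with hypoxia in VIPKO was called in all 16 alternative settings and in all 20 fits without 1 library, including the fit without the library labelled VIPKO hypoxia 4.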

How the data were processed

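RNA of whole lung was sequenced in 20 libraries, prepared with a directional kit per the labels' protocols. The authors deposited 1 table of normalized gene values, used here as signal, and processed reads in Partek against mm10 per the submitters' processing notes. Nothing on the aligner, annotation, strand setting or normalization method is given in the sources used here, so no count model was run. Of 30746 lines, 55 without a gene name, at most 0.0187% of a library's signal, were left out of tests. A signal of at least 10 in 4 or more libraries was required, and tests were made on log2(signal + 1) with limma 3.58.1 (R 4.3.3), with 4 group means, a variance trend, 7 contrasts and Benjamini-Hochberg adjustment. The steps were tested on simulated data. Tables and figures used Python 3.11.15, pandas 2.3.3, numpy 2.4.6, scipy 1.17.1 and matplotlib 3.10.9.

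Named genes were all members, up to 4 called genes of a list by smallest p or 2 where none was called, and for each member the 3 genes with the highest Pearson r over 20 libraries. Eln with hypoxia in VIPKO, Serpinh1, Bmp1, Atox1, Atp7b and Adamts14 were chosen after their values were seen. The members and lists were chosen with earlier results of these data known. In the lists, Col11a1, Tll2 and Twist1 did not pass the filter. Alternatives covered the pseudocount, filter, scaling, variance trend, library weights, the groups fitted, a replicate block, transcript length and GC content, a covariate and left-out libraries. Depth was estimated from the most common low value, and sequence comparisons used GENCODE vM21 transcripts.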

Additional observations from a re-analysis of the deposited data

Results flagged for a closer look

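The Lox change with hypoxia differed between the genotypes by 1.23 on the log2 scale in a test of the difference itself (limma interaction, adjusted p = 0.0397, over 21658 genes). All 5 VIPKO hypoxia libraries were above all 4 VIPKO normoxia libraries, and these groups did not overlap in 5.13% of the genes tested. The interaction value rests on the WT libraries as well. The call was marginal. Its adjusted p was above the threshold in 16 of 20 fits without 1 library, and reached 0.232 across 15 alternative settings.

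Loxl3 in VIPKO normoxia 1 had a signal of 274.2, and its gap to the next of 4 libraries was 0.972 of the range, more than Dixon's test at the 95% level allows. Loxl3 in VIPKO hypoxia 3 had a signal of 218.2, and its gap was 0.843 of the range of 5 libraries, which also passes that test. Chance gives such a gap in about 1 in 20 groups, and 20 combinations of gene and group were examined.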

How the results depend on the processing

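Across 16 alternative settings (15 for the interaction) and 20 fits without 1 library, the rise of Lox with hypoxia in VIPKO kept its call, at 1.23 to 1.37 (adjusted p up to 0.0347) and 1.22 to 1.38 (adjusted p up to 0.00456). So did Lox in VIPKO hypoxia against WT normoxia (0.98 to 1.21, and 0.94 to 1.12). Lox in VIPKO against WT in hypoxia was no longer called when only the compared groups were fitted (0.95, adjusted p = 0.105), with mitochondrial ribosomal RNA as a covariate (1.08, adjusted p = 0.067) or without the 3 libraries whose low values were least often near whole reads, VIPKO normoxia 2, VIPKO normoxia 3 and VIPKO hypoxia 2 (0.93, adjusted p = 0.075), so the count of members was 0 there. Leaving out single libraries gave 0.80 to 1.08, with a count of 0 to 1, 0 only without VIPKO hypoxia 2. The Lox interaction lost its call under rescaling to equal totals (1.20, adjusted p = 0.0544), without the variance trend (1.23, adjusted p = 0.0753), with the covariate (1.10, adjusted p = 0.164) and without the 3 libraries (1.29, adjusted p = 0.232), with a count of 0 each. Leaving out single libraries gave 1.08 to 1.36 (adjusted p 0.0219 to 0.11, count 0 to 1), and the call held without WT hypoxia 2, WT hypoxia 4, VIPKO normoxia 1 or VIPKO hypoxia 3. The cause of these losses was not tested.

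With the replicate block the Lox interaction was 1.28 (adjusted p = 0.0857, count 0), with length and GC correction added 1.29 (adjusted p = 0.0588, count 0), and Loxl2 in VIPKO hypoxia against WT normoxia turned to 0.034. Correlations of deviations from group means showed no clear pairing of libraries by replicate number, which they cannot exclude. Of 27 same-number pairs 7 had r over 0.1 (median -0.02), and 2 of 20 libraries were most like one of their own number.

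Library quality weights added calls, for Loxl1 in VIPKO against WT in normoxia (-0.68, count 1), Loxl1 (-0.63) and Loxl2 (-0.49) with hypoxia in WT (count 2), the interaction of Loxl1 (1.12), Loxl2 (0.74) and Loxl3 (0.65), where 4 members were called, and Loxl4 in VIPKO hypoxia against WT normoxia (-0.36, count 2). The weights also called more of all 21658 genes tested. In VIPKO against WT in normoxia 5448 were called, against 1873 without weights. With hypoxia in WT these were 6590 against 3173, and for the interaction 2228 against 61. In VIPKO hypoxia against WT normoxia they were 4684 against 2666. Loxl4 was also called there under rescaling (-0.45, count 2) and quantile normalization (-0.42, count 2), which called 2714 and 2942 of all genes tested. Leaving out single libraries gave Loxl4 -0.47 to -0.32 there (count 1 to 2). Without the libraries with muscle or thymus genes Loxl2 was called with hypoxia in WT (-0.51, count 1) and in VIPKO against WT in hypoxia (0.63, count 2). Of 21506 genes tested in that fit, 3008 and 1065 were called in these comparisons.

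Values near 0, none of them called, changed sign. In VIPKO against WT in normoxia, Loxl2 was 0.029 with length and GC correction and 0.10 with the block added, and Loxl4 was -0.015 under quantile normalization and -0.17 with the covariate. Leaving out single libraries gave Loxl4 -0.029 to 0.14 there, and Lox with hypoxia in WT -0.042 to 0.23. Loxl2 with hypoxia in VIPKO was -0.007 with correction and block. In VIPKO hypoxia against WT normoxia, Loxl1 was 0.047 with the correction, 0.037 with the block added and -0.21 to 0.023 without single libraries. Loxl2 was 0.039 with weights, 0.064 with the correction, 0.10 with the block added, 0.12 without the muscle and thymus libraries, 0.004 without the 3 libraries and -0.093 to 0.12 without single libraries, and Loxl3 was -0.044 with the covariate. In WT hypoxia against VIPKO normoxia, Loxl1 was -0.25 with the correction, -0.23 with the block added and -0.049 to 0.39 without single libraries, and Loxl3 was 0.11 with the covariate and -0.083 to 0.13 without single libraries.

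Depth, normalization and strand setting are known only as far as stated above. The correction used the 98% of tested genes with a length. GC content and fold change had a Spearman rho across genes of 0.30 with hypoxia in VIPKO and 0.02 for the interaction. For VIPKO against WT it was -0.30 in hypoxia and -0.29 in normoxia. For VIPKO hypoxia against WT normoxia it was -0.04. Lox had the lowest GC content of the members, at 43.9%. Genes are not independent replicates.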
